A study of Mus musculus with 4 samples.

Results

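The circadian clock genes described here are Per1, Per2, Per3, Cry1, Cry2, Arntl, Clock, Nr1d1, Nr1d2 and Dbp, which were taken from the deposited count table by their gene names. All 10 were found among the 54532 genes of the table, and all 10 were abundant enough to be tested. Their mRNA was measured by bulk RNA sequencing, after selection of polyadenylated transcripts, in the mouse line LL2, which derives from a Lewis lung carcinoma. One group of 2 libraries came from cells that received lactic acid at 20 mM in the culture medium for 24 h. The control group of 2 libraries came from cells given PBS, a buffered saline, in equal volume for 24 h. The labels call the libraries of a group biological replicates without saying whether they were separate cultures. The p-values therefore measure the spread between these libraries, which may be technical. The edgeR test used below takes that spread mostly from all genes tested, with a median of 54.8 prior against 2 residual degrees of freedom. A gene's own libraries thus add little to the spread used for it. Neither the pH of the medium nor a synchronisation of the cells is stated in the labels, and 1 time point was sampled, so a change in the level of a rhythm and a shift in its phase cannot be told apart here.

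The mammalian clock is a loop of transcription and feedback. CLOCK and BMAL1, the product of Arntl, bind E-boxes as a pair and switch on the Per, Cry, Nr1d1, Nr1d2 and Dbp genes. PER and CRY proteins then return to the nucleus and repress that pair, and the nuclear receptors REV-ERB alpha and beta, encoded by Nr1d1 and Nr1d2, repress Arntl through elements that they share with the ROR activators. DBP, a leucine zipper factor, carries the rhythm to output genes and acts on the Per genes through D-boxes. In most cells Arntl mRNA runs in antiphase to Nr1d1, Per and Dbp mRNA.

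With lactic acid, the repressor genes Per1, Per2 and Per3 and both REV-ERB genes were higher, and Arntl was slightly lower. The calls of Per2 and Arntl did not hold under the DESeq2 Wald test given below (adjusted p = 0.103 and 0.226). Per3 and Nr1d1 moved most, at 2.38-fold and 1.97-fold. Per1 was 1.34-fold, Per2 1.27-fold and Nr1d2 1.24-fold the PBS level. Cry1, Cry2, Clock and Dbp did not pass the test. The count of members past the edgeR quasi-likelihood test was thus 5 higher, 1 lower and 4 not called, at a Benjamini-Hochberg adjusted p below 0.05 over all genes tested. Among all 13922 genes tested, 49.0% passed, 24.7% higher and 24.3% lower, so 6 of 10 in either direction is near the share of all genes, while by direction 5 of 10 higher stands beside 24.7% and 1 of 10 lower beside 24.3%. A DESeq2 Wald test called 4 of the 10, all higher (Per1, Per3, Nr1d1 and Nr1d2), and 34.1% of all genes tested, with 16.2% higher. The median log2 fold change was 0.29 over the members, against 0.0073 over all genes tested.

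**Figure D1:**
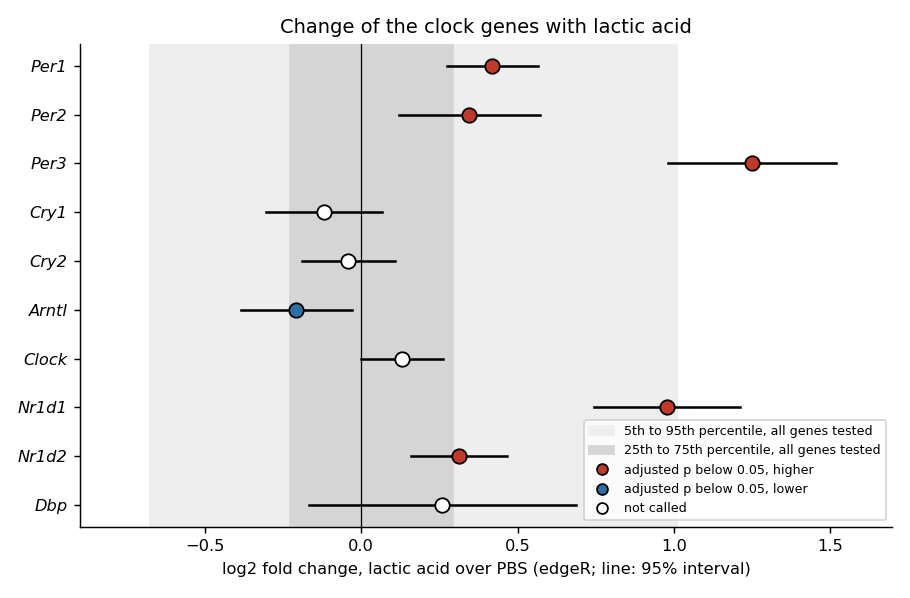
Each point is the log2 fold change of a clock gene, lactic acid over PBS, from the edgeR fit, with its 95% interval as a line. Filled points passed an adjusted p below 0.05, and the grey bands span the middle of all genes tested (-0.23 to 0.29 for the dark band, -0.68 to 1.01 for the light one). Per3 lies to the right of the light band at 1.25, Nr1d1 lies near its edge at 0.98, and Arntl is the filled point below 0.

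Stretches around transcription starts are shown for the members that moved most and for Per1, Cry1 and Arntl. Each holds the letters of an element named below. The window of Cry2, which also holds such letters, and the windows without them are not shown. Each window covers 250 bases before and 50 after a RefSeq transcription start (GRCm38.p6), written 5′ to 3′ on the strand of the gene. RefSeq windows were found for 9 of the 10 members, 13 windows in all, and Per2 had none. Capitals mark the E-box CACGTG, its variant CACGTT, the D-box forms TTATGTAA and TTACGTAA, the core TAGGTCA of the element bound by ROR and REV-ERB, and the CREB element TGACGTCA, each on either strand.
Per3, chr4:151044616-151044915, minus strand: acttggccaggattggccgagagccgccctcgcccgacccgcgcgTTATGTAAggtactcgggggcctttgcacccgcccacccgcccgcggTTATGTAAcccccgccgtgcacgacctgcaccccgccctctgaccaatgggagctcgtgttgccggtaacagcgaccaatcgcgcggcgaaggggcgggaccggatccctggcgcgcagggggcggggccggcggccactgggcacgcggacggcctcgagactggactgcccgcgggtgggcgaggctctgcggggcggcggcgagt
Nr1d1, chr11:98775328-98775627, minus strand: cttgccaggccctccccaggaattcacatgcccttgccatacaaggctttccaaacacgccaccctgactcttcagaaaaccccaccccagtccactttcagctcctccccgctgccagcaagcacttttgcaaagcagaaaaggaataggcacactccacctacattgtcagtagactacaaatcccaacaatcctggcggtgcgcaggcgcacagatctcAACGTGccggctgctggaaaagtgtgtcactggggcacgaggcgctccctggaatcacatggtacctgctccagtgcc
Per1, chr11:69098699-69098998, plus strand: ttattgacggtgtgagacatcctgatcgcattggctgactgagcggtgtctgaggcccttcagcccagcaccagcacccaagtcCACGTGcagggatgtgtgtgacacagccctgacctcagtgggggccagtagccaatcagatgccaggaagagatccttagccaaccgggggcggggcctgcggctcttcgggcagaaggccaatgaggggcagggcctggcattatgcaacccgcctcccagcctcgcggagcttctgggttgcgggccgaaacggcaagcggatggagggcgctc
Cry1, chr10:85185005-85185304, minus strand: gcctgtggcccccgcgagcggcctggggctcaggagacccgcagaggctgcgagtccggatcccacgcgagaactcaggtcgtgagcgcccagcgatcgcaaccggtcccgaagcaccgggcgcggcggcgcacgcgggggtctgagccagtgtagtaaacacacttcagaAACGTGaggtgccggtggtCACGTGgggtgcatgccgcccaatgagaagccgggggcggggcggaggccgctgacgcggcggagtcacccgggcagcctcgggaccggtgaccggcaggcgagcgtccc
Arntl, chr7:113207261-113207560, plus strand: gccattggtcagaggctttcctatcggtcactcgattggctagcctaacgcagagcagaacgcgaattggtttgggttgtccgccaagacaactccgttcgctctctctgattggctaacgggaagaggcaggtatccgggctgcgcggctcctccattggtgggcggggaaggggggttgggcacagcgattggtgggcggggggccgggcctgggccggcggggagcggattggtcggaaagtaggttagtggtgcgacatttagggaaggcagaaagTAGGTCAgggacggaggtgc
Per3 held the D-box TTATGTAA at 2 places, starting at positions -205 and -158 from the start site, and no other member held it. This form was in 0.938% of the 32851 windows of the RefSeq table, and TTACGTAA, in 0.119% of them, was in none of the members' windows. The E-box CACGTG was present in Per1 at -166 and in Cry1 at -60, and in 7.15% of all windows. CACGTT was found in Nr1d1 at -28, in Cry1 at -79 and in Cry2 at -166, and in 4.68% of all windows. Arntl held TAGGTCA at position 30 after the start of its downstream RefSeq transcript, a sequence present in 2.61% of all windows. No member held TGACGTCA (1.79% of all windows), while its core TGACG, which lies inside it and is not capitalised here, was in Per1, Cry1 and Cry2 and in 20.8% of all windows. Counted by gene, as the members are here, CACGTG was in 2 of 9 members and in 8.09% of the 27025 genes with a window. CACGTT was in 3 of 9 members and 5.44% of genes, and TGACG in 3 of 9 and 23.0%. TTATGTAA and TAGGTCA were each in 1 of 9 members, and in 1.11% and 2.97% of genes. TTACGTAA and TGACGTCA, each in 0 of 9 members, were in 0.126% and 2.03% of genes. A match describes these letters only, and a window without one says nothing about a factor.

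Depth was 15501006 and 16331584 counts in the lactic acid libraries and 16164237 and 17409990 in the PBS libraries. At that depth 3 counts, the limit that a count of 0 allows, correspond to 0.175 to 0.191 CPM (counts scaled to library size), and this covers counting error only, since copies made by PCR cannot be told from separate molecules. The clock genes rested on 70 to 850 reads a library. Levels are in CPM on library sizes scaled by edgeR's TMM, and levels are compared between genes only in the FPKM that the authors deposited, which are per length of the gene. As to the cell type, the mesenchymal markers Vim, Col1a1 and Fn1 summed to 5322 and 5369 CPM with lactic acid, against 5368 and 5380 CPM in PBS cells. Col1a1 was at only 1.17 to 1.83 CPM in a library, so nearly all of the sum came from Vim and Fn1. That sum holds opposite changes, since Fn1 measured 2003 and 1996 CPM with lactic acid, against 1306 and 1332 CPM in PBS cells (log2 fold change 0.60), and Vim measured 3318 and 3371 CPM with lactic acid, against 4061 and 4046 CPM in PBS cells (log2 fold change -0.28), both past the edgeR quasi-likelihood test. Of 5 immune markers 3 were at 0 in every library, and the list summed to 6.74 and 7.85 CPM with lactic acid, against 3.91 and 4.03 CPM in PBS cells, nearly all of it from Cd68. Keratin and adhesion genes of epithelial cells summed to 152.6 and 153.1 CPM with lactic acid, against 221.4 and 214.1 CPM in PBS cells, a difference that came from Krt8 (log2 fold change -1.14), while Krt18 had -0.0035. The adhesion genes Epcam and Cdh1 had 0 to 2 reads a library, and Krt19 had 1 to 14. These 3 genes thus gave almost none of that sum. Alveolar and endothelial markers summed to at most 2.73 and 0.846 CPM in a library. The part of these markers in the clock gene values was not tested. Fewer cells of a type and less RNA per cell cannot be told apart in bulk RNA.

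Per1, the period gene that many signals induce directly, measured 46.7 and 46.5 CPM with lactic acid, against 35.3 and 34.3 CPM in PBS cells. The groups did not overlap, with lactic acid above PBS, and the libraries of a group differed little (46.6 ± 0.169 against 34.8 ± 0.731 CPM, SD, n = 2 each). The log2 fold change was 0.42 with a standard error of 0.073 and a 95% interval of 0.27 to 0.57 (edgeR quasi-likelihood, adjusted p = 1.87e-06). Per1 lies on chromosome 11 at 69095217 to 69109960, plus strand (GRCm38, ENSMUSG00000020893).

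Per2, the period gene whose product is a limiting part of the repressor complex, measured 19.0 and 18.5 CPM with lactic acid, against 15.4 and 14.2 CPM in PBS cells. The groups did not overlap. Its log2 fold change was 0.35 with a standard error of 0.11 (edgeR quasi-likelihood, adjusted p = 0.00876). That call was lost without PBS replicate 2 (adjusted p = 0.103) and without lactic acid replicate 1 (adjusted p = 0.0505), with DESeq2 (adjusted p = 0.103) and with limma on FPKM and a pseudocount of 0.1 (adjusted p = 0.0515), in a range of 0.00316 to 0.103 over 13 alternatives. Per2 lies on chromosome 1 at 91415982 to 91459324, minus strand (ENSMUSG00000055866).

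Per3, the period gene that contributes least to the core loop in mice, measured 17.3 and 19.8 CPM with lactic acid, against 7.37 and 8.23 CPM in PBS cells. The lowest lactic acid library was above the highest PBS library by more than the difference between replicates. These levels rested on 273 and 328 reads with lactic acid and 117 and 141 reads with PBS. The log2 fold change of 1.25 had a standard error of 0.13 and a 95% interval of 0.98 to 1.52 (edgeR quasi-likelihood, adjusted p = 6.46e-12). Counting alone would give a standard error of 0.11. Among all genes tested 3.21% had a larger log2 fold change. For the other members called higher that share was 5.33% (Nr1d1), 18.35% (Per1), 21.91% (Per2) and 23.69% (Nr1d2). The gene lies on chromosome 4 at 151003652 to 151044665, minus strand (ENSMUSG00000028957).

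The annotated span of Camta1, a calmodulin-binding transcription activator, overlaps Per3 on the same strand, with 0 exonic bases in common. Camta1 measured 13.2 and 13.4 CPM with lactic acid, against 7.25 and 6.77 CPM in PBS cells, a log2 fold change of 0.92 (edgeR quasi-likelihood, adjusted p = 4.02e-07). Its part in the Per3 value was not tested.

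**Figure D2:**
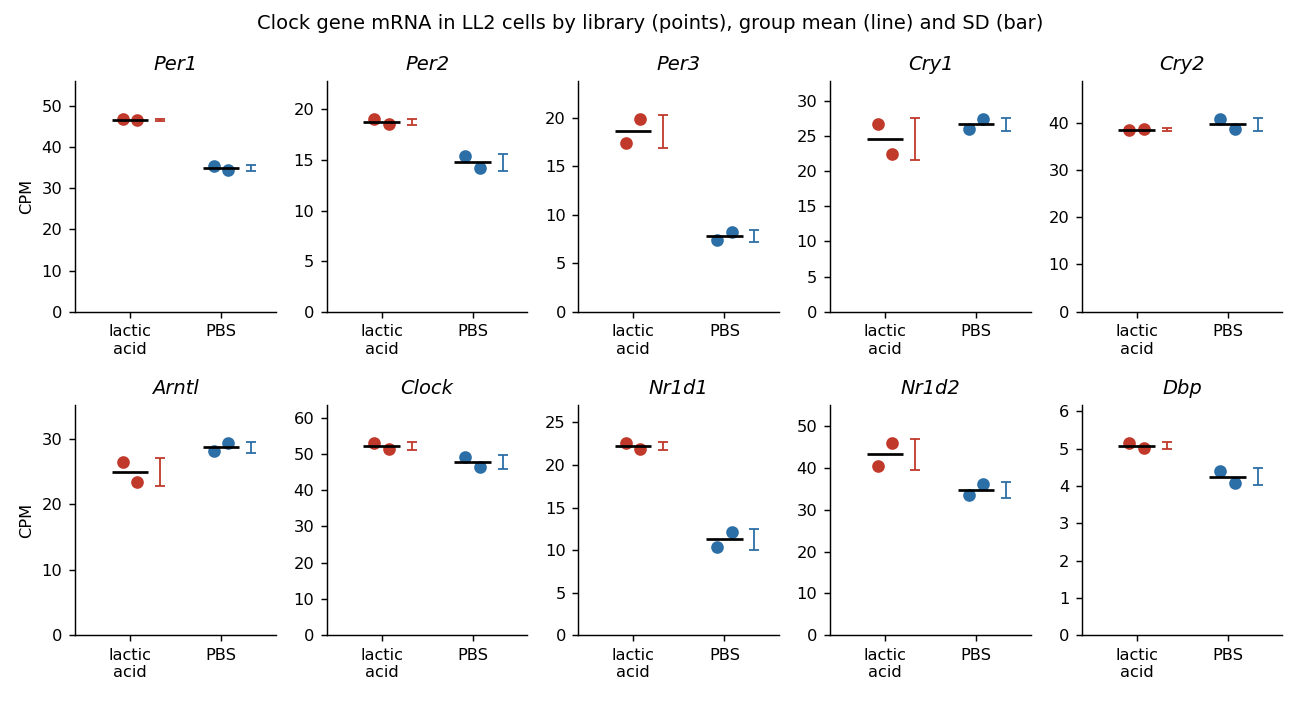
Levels of the 10 clock genes in CPM, with a point for each library, the group mean as a black line and the SD of the 2 libraries as a bar beside it; each axis starts at 0. The lactic acid points lie above the PBS points in the panels of Per1, Per2, Per3, Clock, Nr1d1, Nr1d2 and Dbp and below them in that of Arntl, and the points of Cry1 and Cry2 overlap.

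The cryptochrome genes, whose products are the main repressors of the CLOCK and BMAL1 pair, did not pass. Cry1 measured 26.6 and 22.5 CPM with lactic acid, against 26.0 and 27.3 CPM in PBS cells, so its groups overlapped and its lactic acid libraries were further apart than its PBS libraries. Its log2 fold change was -0.12, with a 95% interval of -0.31 to 0.066 (edgeR quasi-likelihood, adjusted p = 0.295). Cry2 measured 38.4 and 38.7 CPM with lactic acid, against 40.7 and 38.7 CPM in PBS cells, which overlapped as well. Cry2 had a log2 fold change of -0.041, with an interval of -0.19 to 0.11 (edgeR quasi-likelihood, adjusted p = 0.680), and it was 0.0040 with plain library sizes. The intervals hold no doubling or halving of either gene, and smaller changes remain within them. Cry1 lies on chromosome 10 at 85131700 to 85185064 and Cry2 on chromosome 2 at 92403646 to 92434043, both on the minus strand (ENSMUSG00000020038 and ENSMUSG00000068742).

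Of the activating pair, Arntl measured 26.4 and 23.4 CPM with lactic acid, against 28.1 and 29.3 CPM in PBS cells. The groups did not overlap, with lactic acid below PBS, while the lactic acid libraries differed from each other by more than the gap between the groups. The log2 fold change of -0.21 had a standard error of 0.089 and passed narrowly (edgeR quasi-likelihood, adjusted p = 0.0476). It passed in 4 of 13 alternatives, with adjusted p-values of 0.0234 to 0.421, and was lost without lactic acid replicate 2 (0.421), without PBS replicate 2 (0.188) and without PBS replicate 1 (0.0677). Clock measured 52.9 and 51.4 CPM with lactic acid, against 49.0 and 46.3 CPM in PBS cells, groups that did not overlap. Its log2 fold change was 0.13, with a 95% interval of -0.0023 to 0.26 (edgeR quasi-likelihood, adjusted p = 0.0983), and it passed in 1 of 13 alternatives, that with plain library sizes (adjusted p = 0.0234). Arntl lies on chromosome 7 at 113207465 to 113314126, plus strand (ENSMUSG00000055116), and Clock on chromosome 5 at 76209868 to 76304792, minus strand (ENSMUSG00000029238).

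Nr1d1, which encodes the heme-binding repressor REV-ERB alpha, measured 22.6 and 21.9 CPM with lactic acid, against 10.4 and 12.1 CPM in PBS cells. The lactic acid libraries were close to each other and stood well above both PBS libraries (22.2 ± 0.442 against 11.3 ± 1.23 CPM, SD, n = 2 each). The log2 fold change was 0.98 with a standard error of 0.12 and a 95% interval of 0.74 to 1.21 (edgeR quasi-likelihood, adjusted p = 1.73e-10), and 5.33% of all genes tested had a larger one. Nr1d1 lies on chromosome 11 at 98767932 to 98775333, minus strand (ENSMUSG00000020889).

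Nr1d1 shares 263 exonic bases, 8.55% of its exon length, with Thra, the thyroid hormone receptor alpha gene on the opposite strand. Per the labels' protocols the library kit was NEBNext Ultra, without a record of strand, so reads of the shared stretch cannot be assigned to a gene. Thra measured 65.8 and 68.0 CPM with lactic acid, against 42.4 and 43.4 CPM in PBS cells, a log2 fold change of 0.64 (edgeR quasi-likelihood, adjusted p = 4.45e-13). The Thra part in the Nr1d1 value was not tested.

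Nr1d2, which encodes REV-ERB beta, measured 40.5 and 45.9 CPM with lactic acid, against 33.4 and 36.1 CPM in PBS cells. Its groups did not overlap, though the lactic acid libraries were further apart than the PBS libraries. Its log2 fold change was 0.31 with a standard error of 0.077 (edgeR quasi-likelihood, adjusted p = 0.000481). Without lactic acid replicate 2 the call was lost (log2 fold change 0.22, adjusted p = 0.0658), in a range of 9.21e-05 to 0.0658 over 13 alternatives. Nr1d2 lies on chromosome 14 at 18204054 to 18239127, minus strand (ENSMUSG00000021775).

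Dbp, the output factor and the member with the fewest reads, measured 5.15 and 5.02 CPM with lactic acid, against 4.41 and 4.08 CPM in PBS cells. The groups did not overlap, on 81 and 83 reads with lactic acid and 70 and 70 reads with PBS. Counting alone would give its log2 fold change a standard error of 0.17. That log2 fold change was 0.26 with a standard error of 0.21 and a 95% interval of -0.17 to 0.69 (edgeR quasi-likelihood, adjusted p = 0.329). Changes of the size measured for Per1 and Per2 lie within that interval, as does no change, so the depth does not separate these cases for Dbp. Dbp, on chromosome 7 at 45705088 to 45710203, plus strand (ENSMUSG00000059824), shares 539 exonic bases, 18.0% of its exon length, with the sphingosine kinase gene Sphk2 on the opposite strand. Sphk2 had 434.5% as many reads and measured 19.2 and 17.9 CPM with lactic acid, against 21.8 and 22.0 CPM in PBS cells, a log2 fold change of -0.24 (edgeR quasi-likelihood, adjusted p = 0.0463). The part of Sphk2 reads in the Dbp value was not tested.

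Both libraries of one group lay on the same side of both libraries of the other in 8 of the 10 members, 7 with lactic acid higher and 1 lower. Over all genes tested this held for 72.3%, with 36.9% higher and 35.5% lower, so the share in either direction is near that of the table, while by direction 7 of 10 higher stands beside 36.9% and 1 of 10 lower beside 35.5%; neither difference was tested. A change of at least 2-fold with an adjusted p below 0.05 was reached by Per3 alone among the members, and by 4.56% of all genes in the direction of higher with lactic acid.

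Per length of the gene, the order of the levels differed between the groups. With lactic acid, Per1 (8.20 ± 0.0269 FPKM), Nr1d2 (7.91 ± 0.700), Cry1 (7.29 ± 0.868) and Nr1d1 (7.17 ± 0.140) stood at the top, and neighbours in that order did not differ beyond their spread. Cry2 (6.05 ± 0.0410 FPKM) and Clock (3.77 ± 0.0790) followed, then Arntl (3.28 ± 0.277) and Per2 (3.18 ± 0.0527), which overlapped, and Per3 (1.92 ± 0.181) and Dbp (1.68 ± 0.0303) were lowest. With PBS, Cry1 was highest at 7.97 ± 0.282 FPKM, ahead of Nr1d2 (6.42 ± 0.346), Cry2 (6.28 ± 0.228) and Per1 (6.18 ± 0.133), which overlapped as neighbours. Arntl (3.81 ± 0.110 FPKM), Nr1d1 (3.66 ± 0.398) and Clock (3.47 ± 0.140) formed the next set of overlapping neighbours, and Per2 (2.52 ± 0.145), Dbp (1.42 ± 0.0776) and Per3 (0.811 ± 0.0626) came last. Each error is the SD of 2 libraries. By its mean, Nr1d1 was thus between Arntl and Clock with PBS and between Cry1 and Cry2 with lactic acid. Per3 was above Dbp with lactic acid and below it with PBS.

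**Figure D3:**
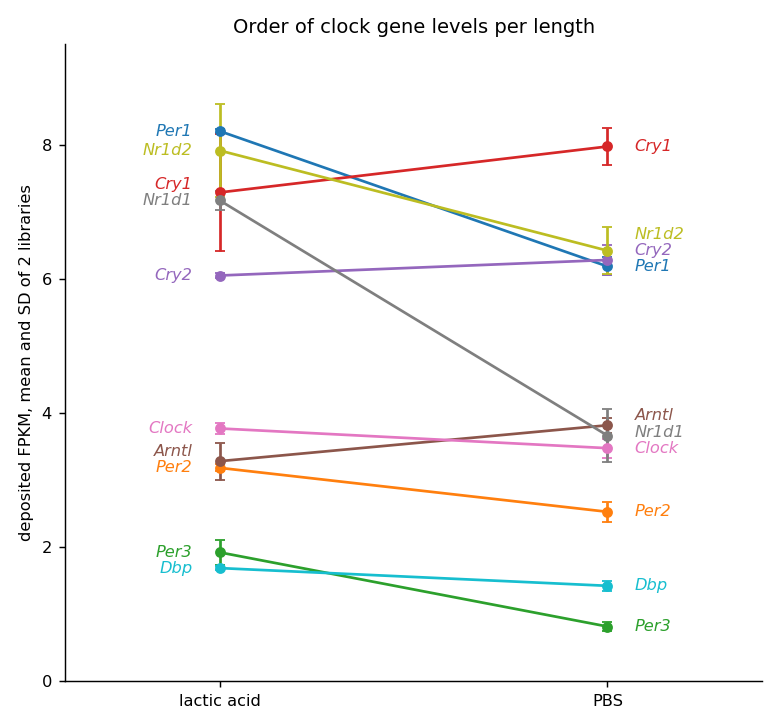
Deposited FPKM of the 10 clock genes as the mean of 2 libraries with the SD as a bar, lactic acid at the left and PBS at the right, with a line joining the means of a gene. The line of Nr1d1 is the steepest, with 7.17 FPKM for lactic acid and 3.66 FPKM for PBS, and the lines of Per3 and Dbp cross.

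Ratios of FPKM within a library do not depend on how libraries were scaled, and they are given as a description. The ratio of Nr1d1 to Arntl, a repressor and its target, was 2.09 and 2.29 with lactic acid and 0.905 and 1.01 with PBS. Nr1d1 was below Nr1d2 in every library, but less so with lactic acid, at ratios of 0.980 and 0.841 with lactic acid and 0.547 and 0.592 with PBS. Neither pair overlapped between the groups. Arntl over Clock was 0.909 and 0.831 with lactic acid and 1.05 and 1.15 with PBS. Per2 over Arntl was 0.926 and 1.02 with lactic acid and 0.703 and 0.622 with PBS.

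Among the period genes the mix shifted towards Per3. Per3 made up 13.5% and 15.3% of the summed Per FPKM with lactic acid and 7.93% and 9.14% with PBS. Per3 over Per1 was 0.218 and 0.250 with lactic acid and 0.122 and 0.141 with PBS, while Per1 over Per2 was 2.56 and 2.61 with lactic acid and 2.39 and 2.52 with PBS. Cry1 over Cry2, at 1.31 and 1.10 with lactic acid and 1.21 and 1.34 with PBS, overlapped between the groups. With 2 libraries against 2, an exact permutation test of a single ratio can give no two-sided p below 0.333, and the ratios are given without a test.

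**Figure D4:**
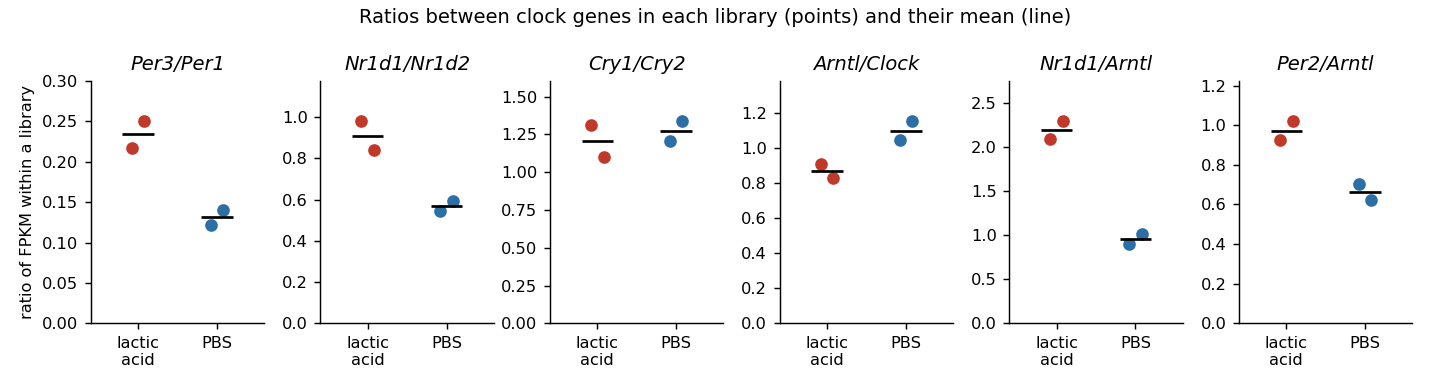
Ratios of deposited FPKM between members, with a point for each library and the mean as a line; each axis starts at 0. The ratios Per3/Per1, Nr1d1/Nr1d2, Nr1d1/Arntl and Per2/Arntl are higher in both lactic acid libraries, Arntl/Clock is lower in both, and Cry1/Cry2 overlaps.

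The partners, regulators and outputs of the members were taken as 6 lists with 50 genes, of which 44 were abundant enough to test. Of these 14 were higher, 16 lower and 14 not called, beside 24.7% higher and 24.3% lower among all genes. The same shares stand beside the counts of each list below, and no list was tested against all genes. Their median log2 fold change was -0.040.

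Of the activators, which include the paralogs of Clock and Arntl, 1 of 4 could be tested. Arntl2, which encodes BMAL2, a paralog that can pair with CLOCK, was higher at 32.0 ± 2.54 CPM with lactic acid, against 18.6 ± 0.879 CPM in PBS cells (SD, n = 2 each; log2 fold change 0.78, edgeR quasi-likelihood adjusted p = 1.61e-10). Arntl2 thus moved up where Arntl had a log2 fold change of -0.21. Rora, Rorb and Npas2, a paralog of Clock, had 0 to 7 reads a library and were not tested.

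In the list of D-box factors and other repressors, 1 of 5 tested genes was higher, 1 lower and 3 not called. Tef, a leucine zipper activator of the same family as DBP, was higher at 67.8 ± 1.31 CPM with lactic acid, against 40.6 ± 1.95 CPM in PBS cells (SD, n = 2 each; log2 fold change 0.74, edgeR quasi-likelihood adjusted p = 4.63e-15). Bhlhe40, which encodes DEC1, a repressor that binds E-boxes, was lower at 12.4 ± 1.45 CPM with lactic acid, against 19.4 ± 0.0637 CPM in PBS cells (log2 fold change -0.65, edgeR quasi-likelihood adjusted p = 5.98e-06). Its paralog Bhlhe41 measured 9.87 ± 0.393 CPM with lactic acid, against 11.7 ± 0.436 CPM in PBS cells (edgeR quasi-likelihood adjusted p = 0.149). Hlf was too low to test.

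The list of kinases and ubiquitin ligases that set the stability of PER and CRY proteins also holds the ubiquitin protease Usp2. Of its 12 tested genes 5 were higher, Usp2 among them, 2 lower and 5 not called. Csnk1e, the casein kinase 1 epsilon gene that phosphorylates PER proteins, was higher, at 99.6 and 100.5 CPM with lactic acid, against 48.5 and 56.3 CPM in PBS cells (log2 fold change 0.93, edgeR quasi-likelihood adjusted p = 1.69e-20). Its close paralog Csnk1d had a log2 fold change of -0.026 and did not pass (edgeR quasi-likelihood adjusted p = 0.596); the difference between the paralogs was not tested. Fbxl21, which encodes an F-box protein that binds CRY proteins, was higher at 6.62 ± 0.465 CPM with lactic acid, against 2.66 ± 0.199 CPM in PBS cells (log2 fold change 1.31). Csnk2b, the regulatory subunit of casein kinase 2, fell by 0.49 on the log2 scale. It shares 62 exonic bases with Gpank1 on the opposite strand, which had 15.2% as many reads and a log2 fold change of -0.043.

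The list of coregulators held the most falls, with 9 of 12 lower, 2 higher and 1 not called. Beside it, 24.3% of all genes tested were lower and 24.7% higher. The median log2 fold change of the list was -0.25. The 9 lower calls stood as a count of 9 under each of the 13 alternatives. Both genes called higher, Kdm5a (log2 fold change 0.15) and Sfpq (0.070), lost the call without PBS replicate 1 (edgeR quasi-likelihood adjusted p = 0.067 and 0.169), with DESeq2 and on both FPKM scales, and Kdm5a shares 251 exonic bases with Ccdc77 on the opposite strand, which had 19.4% as many reads. Timeless, which acts in the replication fork and can bind clock proteins, was lower at 79.2 ± 2.83 CPM with lactic acid, against 127.0 ± 6.15 CPM in PBS cells (SD, n = 2 each; log2 fold change -0.68, edgeR quasi-likelihood adjusted p = 3.96e-19). Ep300, the acetyltransferase p300, fell by 0.47 and Nono, an RNA-binding partner of PER proteins, fell by 0.27 on the log2 scale.

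Output genes gave 2 higher and 1 lower of 5. Alas1, the first enzyme of heme synthesis, was higher at 57.9 ± 5.79 CPM with lactic acid, against 32.2 ± 0.201 CPM in PBS cells (SD, n = 2 each; log2 fold change 0.85). Nampt, which makes a precursor of NAD, fell by 0.31 on the log2 scale. Noct, a phosphatase of NADP(H), had a log2 fold change of 0.40, and near-identical copies of its sequence elsewhere make that value uncertain. Among routes that induce the Per genes, 3 of 9 genes were higher, 3 lower and 3 not called. Without lactic acid replicate 2 the count higher was 1, since Crem (edgeR quasi-likelihood adjusted p = 0.229) and Crtc3 (0.0615) lost the call, and it was 1 on both FPKM scales and 2 with DESeq2. Nr3c1, the glucocorticoid receptor, and Srf, the serum response factor, fell by 0.39 and 0.18 on the log2 scale, and Mkl1, a coactivator of SRF, was higher by 0.28. Mkl1 shares 10 exonic bases with Sgsm3 on the opposite strand, which had 49.5% as many reads and a log2 fold change of -0.017. For Alas1, Nampt, Noct, Nr3c1, Srf and Mkl1 the edgeR quasi-likelihood adjusted p ran from 3.00e-15 for Alas1 to 0.000817 for Srf.

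**Figure D5:**
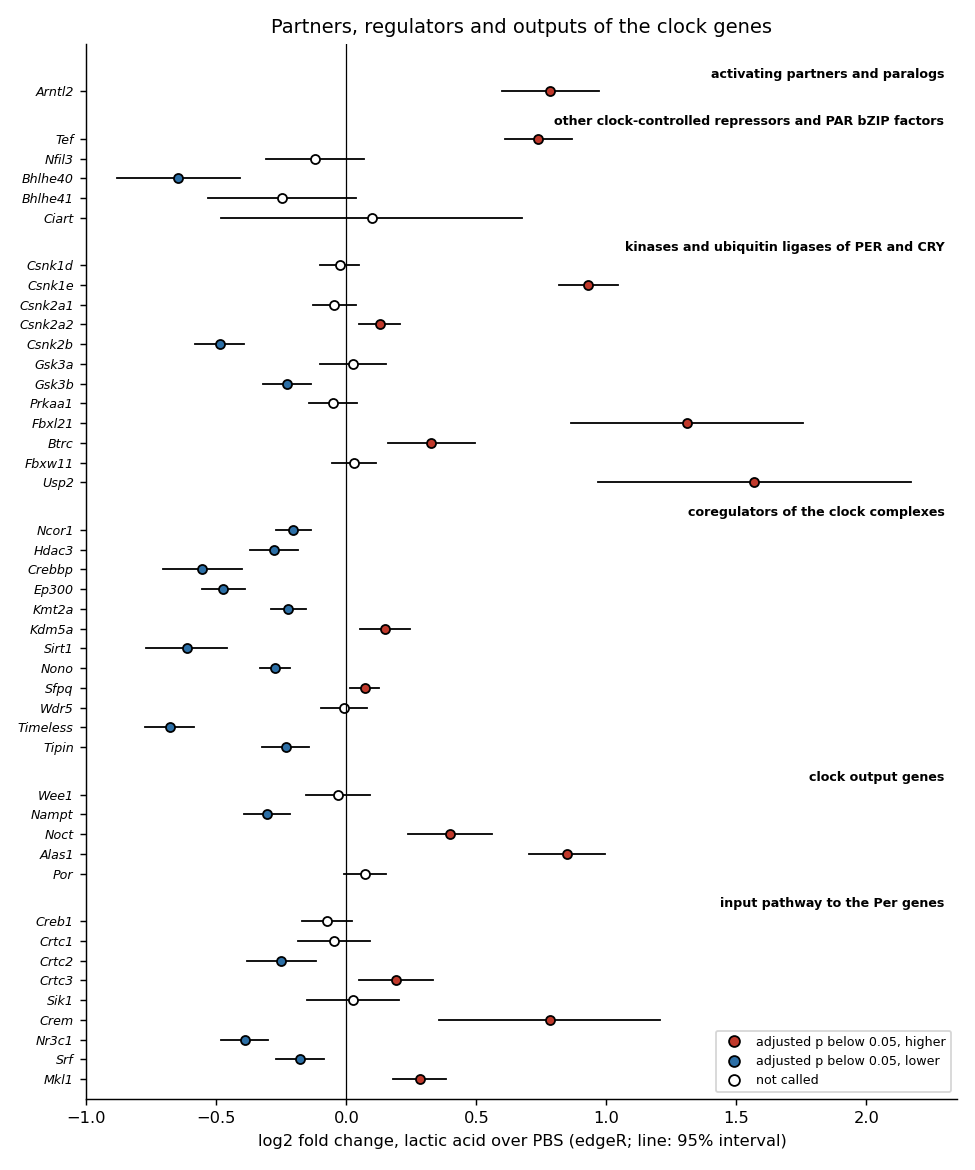
Log2 fold change, lactic acid over PBS, of the 44 tested partner, regulator and output genes by list, with the 95% interval of the edgeR fit as a line; red points were called higher, blue points lower and white points not called. Csnk1e, Fbxl21 and the ubiquitin protease Usp2 lie furthest right in the kinase and ligase list, and most coregulators lie left of 0.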

How the data were processed

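Polyadenylated RNA of LL2 cells gave 4 libraries, 2 with lactic acid and 2 with PBS. The authors deposited whole-number read counts per gene, with no scaling, and FPKM values for the same genes and libraries. The submitters' processing notes name mm10 and GRCm38.p6 as builds, and as tools DESeq2 (1.16.1), StringTie (1.3.3b), CASAVA, featureCounts (1.5.0-p3) and HISAT2 (2.0.5). The notes assign no step to a tool, and the handling of strand, overlapping genes and reads with several positions is not given in the sources used here. The deposited FPKM equal the counts per length divided by 1 constant per library. That constant was 0.982 and 0.985 of the library total with PBS, and 1.025 and 1.022 of it with lactic acid.

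Counts were tested with edgeR 4.0.16 (R 4.3.3): filterByExpr with a minimum count of 10 and a minimum total of 15, which kept 13922 genes, TMM scaling, a robust quasi-likelihood fit with group as the only term, a two-sided test and Benjamini-Hochberg adjustment over all genes kept. A standard error is the log2 fold change divided by the square root of F. Alternatives used DESeq2 1.42.0, limma 3.58.1 on FPKM, other scalings and filters, left-out libraries and a replicate block. Tests were checked on simulated counts. Overlaps come from GENCODE M21 (GRCm38), near-identical copies from blastn 2.17.0 (at least 98% identity over 300 bases), and no member had a copy outside its own locus.

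The members and lists were chosen with earlier results of these data known. Named were all 10 members, the 3 tested genes of each list with the smallest p, and genes that overlap a member and hold at least 10% as many reads. Csnk1d, Hlf, the untested activators, the marker genes, calls that were lost, and the overlaps of Csnk2b, Kdm5a and Mkl1 were named after their values were seen. The lists and their counts leave out genes that are not reported here.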

Additional observations from a re-analysis of the deposited data

How the results depend on the processing

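Over 13 alternatives, Per1, Per3 and Nr1d1 passed in all 13, Nr1d2 in 12, Per2 in 9, Arntl in 4, Clock in 1, and Cry1, Cry2 and Dbp in 0. The log2 fold change of Per3 ranged from 0.69, with FPKM and a pseudocount of 1, to 1.34, and that of Nr1d1 from 0.81 to 1.09. The number of members called lower, 1, was 0 with plain library sizes, DESeq2, no filter, both FPKM scales and a fit that was not robust, and 0 to 1 with a library left out. The number called was 4 with DESeq2 and with FPKM and a pseudocount of 0.1, and 4 to 5 with a library left out. DESeq2 called 2251 genes higher, against 3445 with edgeR. Plain library sizes gave 4029 higher and 2852 lower of all genes, against 3445 and 3377, and a median log2 fold change of 0.053. On both FPKM scales the input list had 3 calls, and the kinase and ligase list had 3 higher, against 5 with edgeR.

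Uncalled values that changed sign with plain library sizes were Cry2 (0.0040), Csnk1d (0.019), Wdr5 (0.037) and Wee1 (0.012). With a library left out, Ciart ranged from -0.070 to 0.25, Csnk1d from -0.071 to 0.015, Csnk2a1 from -0.12 to 0.020, Gsk3a from -0.053 to 0.094, Fbxw11 from -0.018 to 0.066, Wdr5 from -0.054 to 0.035, Wee1 from -0.10 to 0.028 and Sik1 from -0.034 to 0.077. The cause was not tested. With a library left out, the lone library of its group was assumed to vary like those of the other group.

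The labels give both groups the replicate numbers 1 and 2, but same-numbered libraries did not deviate together (correlation across genes 0.0038). That value cannot show, from 2 libraries a group, whether same-numbered libraries were handled together. With the replicate block, 6 members were called, 5 higher and 1 lower, and 6852 genes in all, against 6822 without it. The depth limits Dbp most.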

Other observations

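Companion genes outside the naming rule, chosen after their values were seen, held the largest rise and some of the largest falls of the lists. Usp2, a ubiquitin protease that acts on clock proteins and is itself rhythmic, measured 3.30 and 5.68 CPM with lactic acid, against 1.39 and 1.63 CPM in PBS cells, on 22 to 94 reads a library. Its log2 fold change of 1.57 had a standard error of 0.30 (edgeR quasi-likelihood, adjusted p = 1.24e-05) and ranged from 0.54 to 1.90 over 13 alternatives, all past the threshold. Crem, which encodes activators and repressors of cyclic AMP responses, measured 5.27 and 8.46 CPM with lactic acid, against 4.10 and 3.91 CPM in PBS cells (log2 fold change 0.78, edgeR quasi-likelihood adjusted p = 0.00164). Without lactic acid replicate 2 Crem did not pass (log2 fold change 0.40, adjusted p = 0.229, in a range of 3.59e-05 to 0.229). Sirt1, an NAD-dependent deacetylase that acts on BMAL1 and PER2, was lower at 27.4 and 30.6 CPM with lactic acid, against 44.0 and 44.8 CPM in PBS cells (log2 fold change -0.61, edgeR quasi-likelihood adjusted p = 1.05e-09). Crebbp, the acetyltransferase related to p300, fell by 0.55 on the log2 scale, at 81.6 and 79.6 CPM with lactic acid, against 108.3 and 128.1 CPM in PBS cells.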
